A study of Mus musculus with 36 samples.

Results

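Mesenchymal stem cells (MSCs) cultured from femoral bone marrow (fBM-MSCs) were compared with those cultured from lung (P-MSCs). All libraries whose sample labels name these tissues were taken, so the comparison covered 6 of the 11 RNA-seq libraries analysed, 3 of each tissue, and all 24411 genes listed in the files. The study asked how MSCs of different tissue origin differ in transcription and in chromatin accessibility. According to its methods, both tissues came from C57BL6/J mice aged 8 weeks, and no treatment is described. The femur was crushed with a mortar and pestle, whereas the lung was minced and digested with collagenase, so that tissue and isolation cannot be told apart. Both suspensions were depleted of red blood cells, plated on collagen I in MesenCult medium with a Rock inhibitor, and used within 3 passages without sorting. The tissues came from the same 3 mice, but which libraries share a mouse was not stated, so the libraries were treated as independent and the p-values measure the spread between these cultures. Accessible chromatin was measured by ATAC-seq, in which a transposase inserts adaptors into open DNA, and 1 peak list per tissue, pooled over its replicates, was used.

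MSCs are plastic-adherent stromal cells that can be driven in culture towards bone, fat and cartilage. In marrow they lie on the lineage that gives osteoblasts, the cells that lay down and mineralise bone matrix, and they make factors that keep blood stem cells. The mesenchyme of the lung instead gives airway and vascular smooth muscle, alveolar fibroblasts and pericytes, and carries positional transcription factors laid down in the embryonic foregut region.

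The P-MSC libraries were close to one another, while the fBM-MSC libraries were less so. Total expected counts were 19569650, 31805844 and 37180657 in fBM-MSC replicates 1 to 3, and 40517739, 31089045 and 34414200 in P-MSC replicates 1 to 3. TPM is a share of all transcripts corrected for gene length. Counted were tested genes with a mean of at least 5 TPM in the tissue and above 0 in each of its libraries. Of these, 158 of 7761 (2.04%) differed by 4-fold or more among the fBM-MSC libraries, against 1 of 7834 (0.0128%) among the P-MSC libraries. Of the 158 genes, replicate 1 was the highest fBM-MSC library for 68 and the lowest for 51, and replicate 3 the highest for 58 and the lowest for 91. The pre-ribosomal RNA Rn45s held 12.9 to 17.7% of the counts in fBM-MSCs and 10.9 to 12.3% in P-MSCs. Because the cells were measured in bulk, fewer cells of a kind and less RNA per cell cannot be told apart in any difference given here.

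Of 12509 genes with enough counts to be tested, 5962 (47.7%) differed between the tissues. The test was edgeR's quasi-likelihood F test with Benjamini-Hochberg adjustment over all genes tested, at an adjusted p of 0.05, and genes that passed it are called here. Called genes higher in fBM-MSCs numbered 3086 (24.7% of those tested) and those higher in P-MSCs 2876 (23.0%). Counts of called list members given below are to be read beside these shares. A difference of at least 4-fold was called for 911 genes (7.28%) higher in fBM-MSCs and for 556 (4.44%) higher in P-MSCs, and one of at least 32-fold for 263 and 61. On log2(TPM + 1) with limma-trend, fBM-MSCs held 42.4% of the calls instead of 51.8%, and 48.8% of the 4-fold calls instead of 62.1%. The median log2 fold change of all genes moved from 0.02 to −0.09 on that scale. With a pseudocount of 0.1 the shares were 42.4% and 55.4% and the median was −0.12. TPM ranges of the tissues did not overlap for 3269 genes with fBM-MSCs above (26.1%) and for 4495 with P-MSCs above (35.9%).

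**Figure D1:**
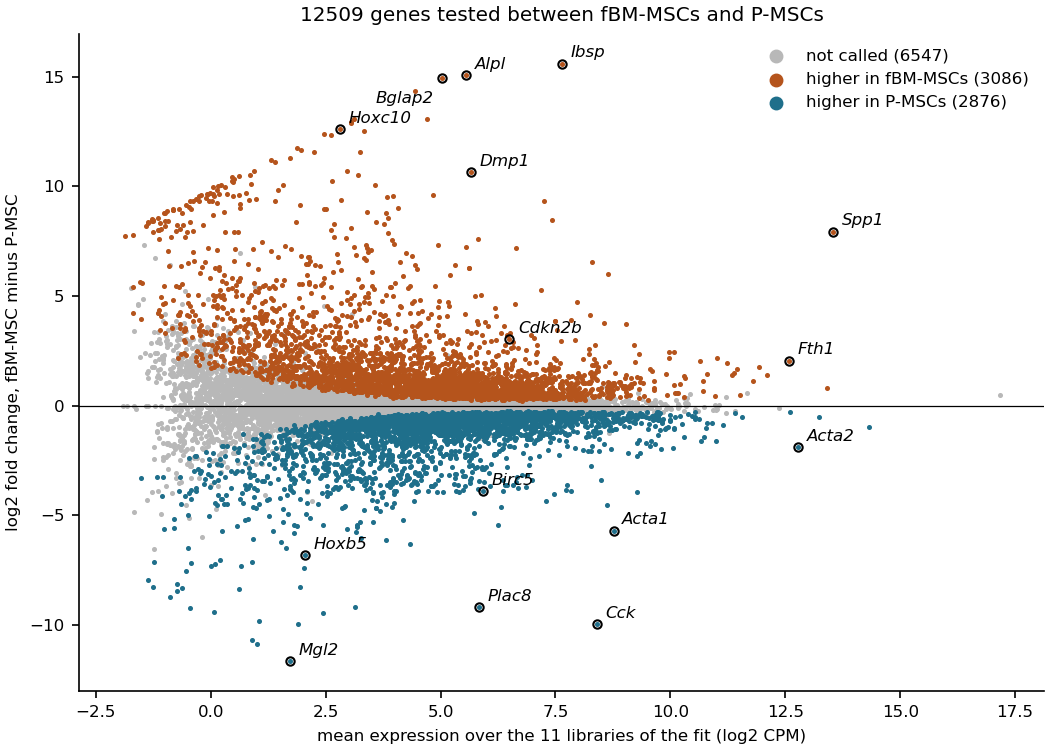
Log2 fold change, fBM-MSC minus P-MSC, of each of the 12509 genes tested (vertical axis) against its mean expression in log2 CPM over the libraries of the model (horizontal axis), coloured by call. The 3086 genes called higher in fBM-MSCs reach further from 0 than the 2876 called higher in P-MSCs, with 263 against 61 genes at 32-fold or more.

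Genes of bone formation were among those with the largest differences in favour of fBM-MSCs. Of 24 osteoblast genes tested out of 28, 22 were higher in fBM-MSCs and 0 in P-MSCs, with a median log2 fold change of 4.54 against 0.02 for all genes. Without fBM-MSC replicate 3, 21 of 23 were higher, 1 was lower, and the median was 4.17, while it was 5.21 without fBM-MSC replicate 2. The matrix gene Spp1, encoding osteopontin (chr5:104435111-104441053, plus strand, GRCm38.p6, as for all positions given), had 26353, 38359.9 and 84015 TPM in fBM-MSC replicates 1 to 3 against 284, 160.5 and 220.1 TPM in those of P-MSCs. The difference came to 7.93 on the log2 scale (SE 0.69, adjusted p = 5e-06, edgeR), and 7.30 without fBM-MSC replicate 3. Spp1 was present in every library of both tissues, with no overlap of their ranges.

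Other bone genes were close to all-or-none. Ibsp, encoding the bone sialoprotein that binds hydroxyapatite (chr5:104299287-104311472), had 218, 286 and 1009.7 TPM in fBM-MSCs against 0.02, 0 and 0 TPM in P-MSCs. The ratio of its counts was 73069, with a counting interval from 13114 to 2886104, and the few P-MSC counts lay in replicate 1. The tissue-nonspecific alkaline phosphatase gene Alpl (chr4:137741731-137796384), whose product releases phosphate for mineralisation, had 35.6, 27.6 and 173 TPM in fBM-MSCs and 0 in all P-MSC libraries. It was therefore at least 5137-fold higher in fBM-MSCs, with the limit set at 3 counts over the P-MSC group (adjusted p = 0.00022, edgeR). The osteocalcin genes Bglap and Bglap2, neighbouring copies among which reads may be split, were at 0 in all P-MSC libraries. Bglap had 155, 302 and 1065 TPM in fBM-MSCs (at least 3108-fold higher) and Bglap2 224, 490.4 and 1673 TPM (at least 4703-fold higher). For these 4 genes replicate 3 stood highest of the fBM-MSC libraries, and leaving it out lowered the fitted log2 fold change by more than 1.5 times on the linear scale: from 15.59 to 14.57 for Ibsp (17.28 without P-MSC replicate 1), from 15.07 to 13.74 for Alpl, from 14.33 to 13.10 for Bglap and from 14.92 to 13.69 for Bglap2, all still called. Dmp1, which encodes a phosphoprotein of late osteoblasts and osteocytes, had 40.4, 96.7 and 159 TPM in fBM-MSCs against 0.01, 0.2 and 0 TPM in P-MSCs (log2 fold change 10.65, SE 1.26, and 13.42 without P-MSC replicate 2). The members of the list that were not called were Atf4, a stress-response factor that osteoblasts need, at 84.1, 97.5 and 175 against 183, 197 and 192 TPM (adjusted p = 0.060, edgeR), and Phex, an endopeptidase of osteocytes, which stayed at or below 0.67 TPM in every library.

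**Figure D2:**
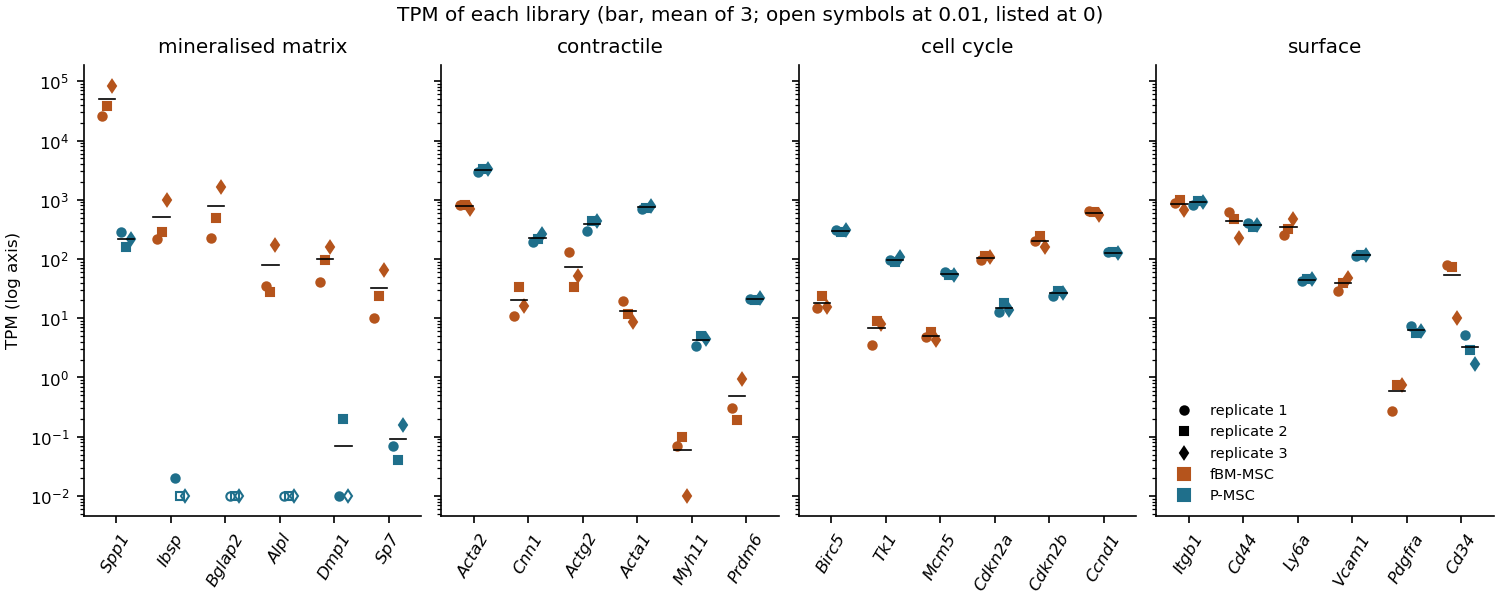
TPM on a log axis of 24 genes in each fBM-MSC and P-MSC library, in panels for mineralised matrix, contractile, cell cycle and surface genes; the bar is the mean of 3 libraries and open symbols mark a gene listed at 0. Alpl and Bglap2 are at 0 in all P-MSC libraries, and the symbols of the tissues overlap only for Itgb1 and Cd44.

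Markers of osteoclasts, the bone-resorbing cells of marrow, are given beside the bone genes. Of 10 osteoclast markers 7 were tested, and 5 were higher in fBM-MSCs and 0 in P-MSCs. Their summed level was 230.5 to 354 TPM in fBM-MSCs and 63.9 to 73.2 TPM in P-MSCs, most of it from the protease gene Ctsk at 183, 179.7 and 301 against 58.4, 63.1 and 70.0 TPM. Atp6v0d2, a subunit of the proton pump of osteoclasts (chr4:19876838-19922566), had 20.9, 23.0 and 15 TPM in fBM-MSCs and 0 in P-MSCs, at least 1071-fold higher (adjusted p = 4.1e-05, edgeR). The markers Acp5 and Calcr, the latter the calcitonin receptor gene, did not exceed 0.91 and 0.26 TPM in any library, and Dcstamp, needed for osteoclast fusion, was at 0 in all 6. Macrophage markers summed to 45.6 to 72.8 TPM in fBM-MSCs and 29.0 to 32.8 TPM in P-MSCs, with the defining markers Adgre1, Aif1 and C1qb at 0 in all 6 libraries. Of 6 macrophage markers tested, 3 were higher in fBM-MSCs and 2 in P-MSCs, and of the former Cd68 (log2 fold change 1.16) lost its call without fBM-MSC replicate 2 or any P-MSC library, at 0.98 to 1.26. The lysozyme gene Lyz2 had 22.2, 22.4 and 36.4 TPM in fBM-MSCs against 2.71, 1.81 and 1.76 TPM (3.80, SE 0.37), and Fcer1g, a signalling subunit of Fc receptors, had 4.70, 15.9 and 19.8 TPM against 0 in all P-MSC libraries (at least 144-fold higher). Granulocyte markers summed to 8.61, 10.3 and 0.69 TPM in fBM-MSCs and to 3.45 to 6.2 TPM in P-MSCs, and none passed the filter on low counts. Glial markers summed to 19.1 to 56.2 TPM in fBM-MSCs and 1.4 to 2.65 TPM in P-MSCs, nearly all of the former from the calcium-binding protein gene S100b at 24.1, 18.8 and 56 TPM, while Sox10 and Foxd3 were at 0 in all 6 libraries. Of 2 glial markers tested, S100b was higher in fBM-MSCs and Mbp in P-MSCs (log2 fold change of Mbp −4.22, and −5.27 without fBM-MSC replicate 2). The part of these markers in the bone gene results was not tested.

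Small leucine-rich proteoglycans, which coat and space collagen fibrils, were higher in fBM-MSCs for 6 of 11 genes tested and in P-MSCs for 0 (median log2 fold change 3.78, and 2.67 without fBM-MSC replicate 1). Fmod, encoding fibromodulin, had 156, 52.8 and 460.3 TPM in fBM-MSCs against 0.96, 0.33 and 0.73 TPM in P-MSCs. The difference came to 8.47 on the log2 scale (SE 0.85, adjusted p = 1.3e-05, edgeR), and 7.38 without fBM-MSC replicate 3. Prelp, which anchors basement membranes, had 79.3, 11.8 and 24.7 against 3.24, 2.41 and 3.63 TPM, a log2 fold change of 3.78 (SE 0.62) that fell to 2.67 without fBM-MSC replicate 1. Both genes lay above the P-MSC range in every fBM-MSC library while ranging widely among those libraries. Periostin is a matrix protein of periosteum, and its gene belongs to the TGF-beta list. Postn had 53.2, 151 and 357 TPM in fBM-MSCs against 0.27, 0.69 and 0 TPM (log2 fold change 9.33, SE 0.96, between 8.44 if fBM-MSC replicate 3 was omitted and 10.47 without P-MSC replicate 2). Matrix metalloproteinases and their inhibitors were higher in fBM-MSCs for 11 of 17 genes and in P-MSCs for 1. The gelatinase gene Mmp2 had 190, 304 and 486 against 24.9, 19 and 17.7 TPM (log2 fold change 4.11 with SE 0.35, adjusted p = 4.2e-06, edgeR), and its inhibitor Timp1 had 12671, 8936 and 5173 against 3853, 3310.1 and 3253 TPM (1.5, SE 0.26).

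Wnt ligands signal through Frizzled receptors with Lrp5 or Lrp6, and secreted antagonists of the Sfrp, Dkk and Wif families limit them; in bone, Wnt signals favour osteoblasts. Of 37 Wnt pathway genes tested out of 47, 25 were higher in fBM-MSCs and 4 in P-MSCs (median log2 fold change 2.12). Those higher in fBM-MSCs numbered between 18 and 22 when 1 library was left out, with 18 without P-MSC replicate 3, where 2 were higher in P-MSCs. Both ligands and antagonists were among them. The ligand gene Wnt7b had 0.12, 1.73 and 1.35 TPM in fBM-MSCs and 0 in P-MSCs (at least 97.0-fold higher). Of the antagonists, Wif1 had 5.78, 7.10 and 32.9 TPM (at least 876-fold higher) and Dkk1 0.74, 2.51 and 15.5 TPM (at least 374-fold higher), both at 0 in all P-MSC libraries. Leaving out fBM-MSC replicate 3, the highest for both, moved the fitted log2 fold change from 12.51 to 11.24 for Wif1 and from 11.22 to 9.23 for Dkk1. In contrast, the related gene Dkk2 was higher in P-MSCs, at 8.84, 10.5 and 9.32 against 0.85, 1.07 and 0.14 TPM (log2 fold change −3.70 with SE 1.04, adjusted p = 0.012, edgeR), and so was the receptor gene Fzd7, at 27.4, 28.1 and 24.1 against 15.5, 12.3 and 8.88 TPM (−1.0, SE 0.18).

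Beside 24.7% and 23.0% of all genes tested, 14 of 32 BMP pathway genes were higher in fBM-MSCs and 5 in P-MSCs (median 0.39). Among the former was Bmp3, an atypical ligand gene whose product opposes osteogenic BMPs, which had 5.27, 7.04 and 24.8 TPM against 0, 0.02 and 0.04 TPM. The log2 difference was 9.36 (SE 1.42), and 8.33 without fBM-MSC replicate 3 to 10.55 without P-MSC replicate 3. On the side of P-MSCs, the endothelial-type BMP receptor gene Acvrl1 had 45.3, 51.1 and 48.0 against 7.52, 7.49 and 1.44 TPM (−3.03, SE 0.45, adjusted p = 0.00021, edgeR), and the secreted modulator gene Bmper 35.0, 40.8 and 39.8 against 12.5, 10.4 and 7.16 TPM (−1.82, SE 0.18). Of 17 retinoic acid genes tested, 7 were higher in fBM-MSCs and 2, Crabp1 and Aldh1a2, in P-MSCs (median 0.90), beside 24.7% and 23.0% of all genes. Dhrs3, whose product turns retinaldehyde back to retinol, had 38.1, 36 and 71.5 TPM in fBM-MSCs against 1.74, 1.22 and 3.09 TPM (4.71, SE 0.40). Crabp2, a retinoic acid carrier, had 179, 91.2 and 9.41 TPM in fBM-MSCs against 0.16, 0.88 and 0 TPM (log2 fold change 8.27, SE 1.22, between 7.30 when fBM-MSC replicate 1 was omitted and 10.02 when P-MSC replicate 2 was). Its relative Crabp1 had 13.8, 16.6 and 13.8 TPM in P-MSCs against 1.24, 0 and 0 TPM (−5.22, SE 1.34, between −4.53 without fBM-MSC replicate 3 and −10.48 without fBM-MSC replicate 1). The synthetic enzyme gene Aldh1a2 was higher in P-MSCs, at 20.4, 17.3 and 21.2 against 3.70, 4.84 and 2.51 TPM (−2.30, SE 0.21).

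**Figure D3:**
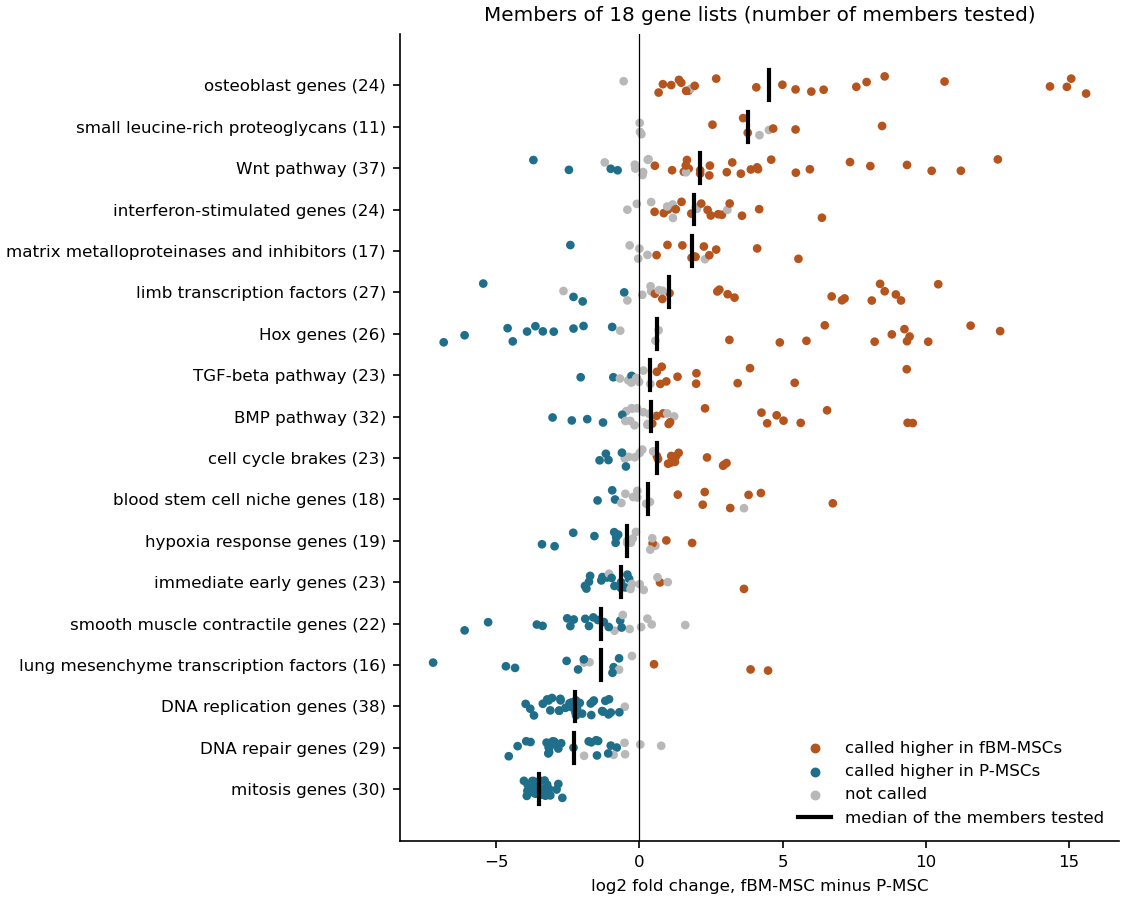
Log2 fold change, fBM-MSC minus P-MSC, of each tested member of 18 gene lists (points, coloured by call) with the median of each list (bar). The median runs from 4.54 for osteoblast genes to −3.52 for mitosis genes, and the Hox genes lie on both sides with 12 and 11 called.

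Hox genes, which mark position along the body and limb axes, parted the tissues by cluster. Of 26 tested out of 39, 12 were higher in fBM-MSCs and 11 in P-MSCs, while their summed TPM was 106 to 111 in fBM-MSCs and 102 to 112 in P-MSCs. Called genes of HoxC and HoxD and the posterior genes of HoxA were higher in fBM-MSCs, while Hoxc4, Hoxa7 and Hoxb9 were not called. Hoxc10, a hindlimb gene (chr15:102966796-102971898), had 19.3, 19.4 and 19.6 TPM in fBM-MSCs and 0 in P-MSCs, at least 800.1-fold higher (adjusted p = 1.6e-05, edgeR). Hoxa10, needed for the femur-forming segment of the limb, had 19.1, 21.2 and 28.6 against 0.11, 0.02 and 0.02 TPM (log2 fold change 8.81, SE 1.10, and 10 without P-MSC replicate 1). Hoxa11 had 4.84, 3.67 and 7.89 against 0.02, 0 and 0 TPM, a count ratio of 866 with an interval from 155 to 34236, and its fitted log2 fold change of 9.34 was 11.02 without P-MSC replicate 1, which held the P-MSC counts. Hoxc13 had 6.89, 9.57 and 5.35 TPM against 0 in all P-MSC libraries, and Hoxd8 1.78, 2.35 and 3.32 TPM against 0.

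Called genes of HoxB and the anterior genes of HoxA were instead higher in P-MSCs. Hoxa5, which patterns the lung and thorax, had 20.5, 18 and 23.2 TPM against 0.45, 1.22 and 1.95 TPM in fBM-MSCs (log2 fold change −3.92 with SE 0.53, adjusted p = 0.00011, edgeR), and reads may be shared with the overlapping gene Hoxa3. Hoxb2 had 14, 14.7 and 15.2 against 1.61, 0.99 and 1.30 TPM (−3.37, SE 0.31). Hoxb5 (chr11:96303512-96306121) had 7.59, 10.3 and 8.22 against 0, 0.19 and 0 TPM, but overlaps the antisense gene Hoxb5os, from which unstranded reads cannot part it. Its log2 fold change of −6.83 (SE 0.78) was −11.29 without fBM-MSC replicate 2 and −6.13 without replicate 3. In HoxB, fBM-MSC replicate 1 stood apart from the other fBM-MSC libraries, with 9.66 TPM of Hoxb7 against 0.90 and 0.34 TPM, and 1.67 TPM of Hoxb6 against 0.13 and 0.11 TPM (log2 fold change of Hoxb6 −4.60, and −6.79 without that library). Hoxb7 had 16.3, 20.2 and 19.7 TPM in P-MSCs, and its log2 fold change of −2.30 was called with all libraries but not without any P-MSC library or without fBM-MSC replicate 2 or 3, where it was −1.72 to −2.37, while it was −4.84 without fBM-MSC replicate 1.

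**Figure D4:**
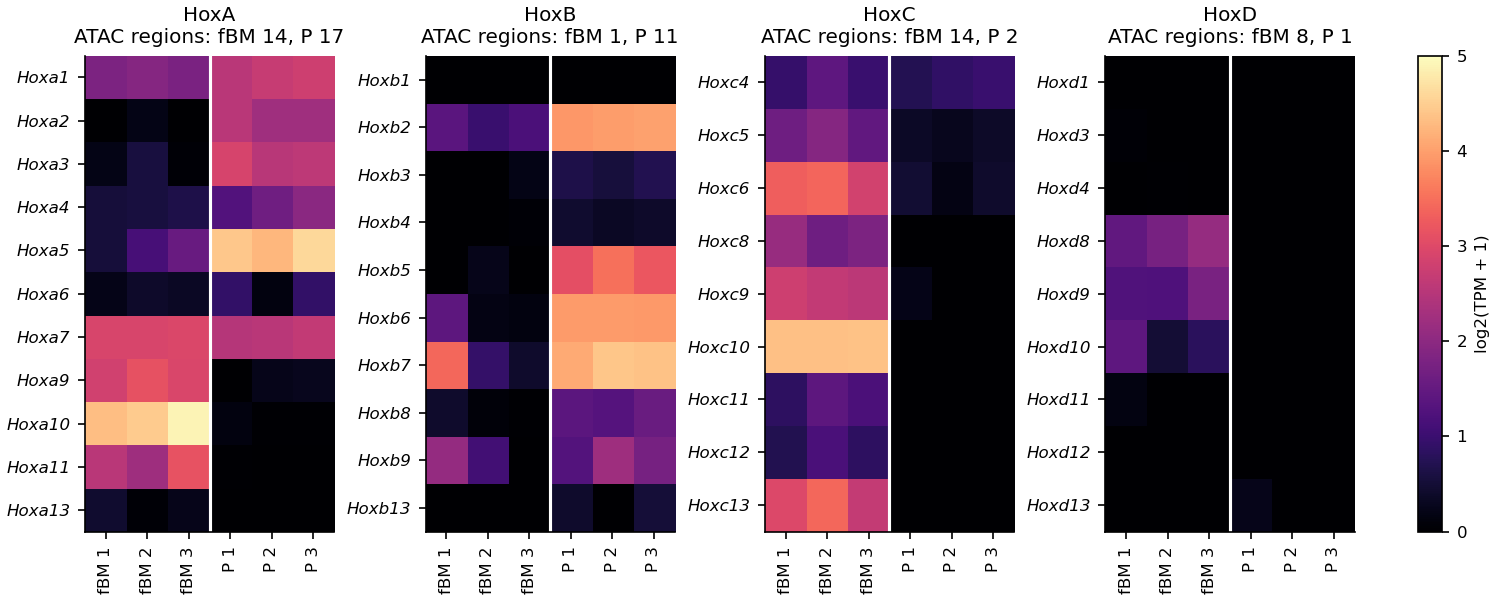
Level of each Hox gene, as log2(TPM + 1) on a colour scale from 0 (black) to 5, in each fBM-MSC and P-MSC library (columns), with the number of accessible regions of each tissue in the cluster above its panel. Hoxc6, Hoxc10, Hoxc13 and Hoxd8 are brighter in fBM-MSCs and Hoxb2, Hoxb5 and Hoxb6 in P-MSCs, and the accessible regions number 14 against 2 in HoxC, 8 against 1 in HoxD and 1 against 11 in HoxB.

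Transcription factors that pattern the limb followed the posterior Hox genes: 16 of 27 tested were higher in fBM-MSCs and 4 in P-MSCs (median log2 fold change 1.05). Shox2, which drives growth of the limb bones nearest the trunk, had 17.1, 21.6 and 27.1 against 0, 0.31 and 0.66 TPM (log2 fold change 6.71 with SE 1.05, adjusted p = 0.00032, edgeR), with 6.08 and 7.34 without P-MSC replicate 1 or 3. Dlx5, a homeobox gene of bone and cartilage, had 9.09, 17.8 and 44.3 against 0, 0.16 and 0 TPM, with a log2 fold change of 8.95 (SE 1.43) that was 8.09 when fBM-MSC replicate 3 was omitted and 12.34 without P-MSC replicate 2. Pitx1, which specifies the hindlimb, had 3.46, 3 and 6.50 against 0, 0 and 0.09 TPM (7.16, SE 1.20, and 10.81 without P-MSC replicate 3). The genes of the list higher in P-MSCs were Lhx9, Meis1, Twist2 and Prrx1. Lhx9, a LIM-homeobox gene, had 8.45, 10 and 8.59 TPM in P-MSCs against 0.23, 0.10 and 0.25 TPM (−5.45, SE 0.77), whereas Prrx1, a general marker of limb and body-wall mesenchyme, differed by only −0.53 (SE 0.16) and lost its call without fBM-MSC replicate 2, at −0.48.

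Lung mesenchyme factors showed the opposite pattern, with 9 of 16 higher in P-MSCs and 3 in fBM-MSCs (median −1.34). Counts ranged from 6 to 9 and from 1 to 3 when 1 library was left out, with 6 without P-MSC replicate 1 or 3 and 1 in fBM-MSCs without fBM-MSC replicate 1 or P-MSC replicate 2 or 3. Foxf1, the forkhead factor of foregut and lung mesenchyme (chr8:121084386-121088154), had 20.4, 21.5 and 21.2 TPM in P-MSCs against 0.14, 0.93 and 1.12 TPM in fBM-MSCs. The difference came to −4.66 on the log2 scale (SE 0.53, adjusted p = 3.4e-05, edgeR). Osr1, which acts in early lung and kidney mesenchyme, had 45.7, 46.5 and 53.1 against 3.36, 2.56 and 0.87 TPM (−4.34, SE 0.38). Tbx4, a T-box gene used as a marker of lung mesenchyme although it also acts in the hindlimb, had 5.73, 6.98 and 8.77 against 1.39, 1.07 and 0.96 TPM (−2.54, SE 0.55). Tcf21, a factor of lung fibroblasts, had 1.44, 0.24 and 0.90 TPM in P-MSCs and 0 in fBM-MSCs (at least 18.4-fold higher in P-MSCs, with a fitted log2 fold change of −7.20 that was −6.54 without P-MSC replicate 1), while Tbx5, the partner of Tbx4 in lung branching, was not called, at 2.04, 2.41 and 3.43 against 1.31, 0.21 and 0.64 TPM. Of the members higher in fBM-MSCs, Foxd1 had 0.90, 0.55 and 1.01 against 0.02, 0.10 and 0 TPM (4.49, SE 0.91, and 6.35 without P-MSC replicate 2), and the calls of Barx1 and Foxc2 were lost without any of several libraries, with log2 fold changes of 3.37 to 3.70 against 3.88 and of 0.30 to 0.50 against 0.51.

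P-MSCs expressed the contractile programme of smooth muscle at higher levels. Of 22 smooth muscle genes tested, 15 were higher in P-MSCs and 0 in fBM-MSCs, or 1 without P-MSC replicate 1 (median log2 fold change −1.34), and the list summed to 8461 to 9690.2 TPM in P-MSCs against 2975 to 3527 TPM in fBM-MSCs. Acta2, encoding smooth muscle alpha-actin (chr19:34240336-34255373), had 2885, 3311 and 3244 TPM in P-MSCs against 821, 809.8 and 702 TPM. The difference came to −1.89 on the log2 scale (SE 0.15, adjusted p = 2.3e-06, edgeR), so both tissues expressed it and the ranges were well apart. Cnn1, the contraction regulator calponin, had 193, 221 and 269 against 11, 34.0 and 15.9 TPM (−3.38, SE 0.41). Myh11, the myosin of mature smooth muscle, had 3.41, 5.05 and 4.38 against 0.07, 0.10 and 0.01 TPM (−6.10, SE 0.52, between −5.44 without fBM-MSC replicate 3 and −7.01 without replicate 2). Prdm6, a repressor found in smooth muscle, had 21, 20.6 and 22.3 against 0.31, 0.19 and 0.94 TPM (−5.28, SE 1.06, and −6.32 without fBM-MSC replicate 3). The skeletal muscle actin gene Acta1 was also higher, at 710.2, 736 and 778 TPM in P-MSCs against 19.3, 11.7 and 8.54 TPM (−5.70, SE 0.71). Of the other skeletal muscle markers the factors Myod1, Myf5, Myog and Pax7 were at 0 in all 6 libraries.

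Some of the largest differences in favour of P-MSCs lay in genes of other function. Cck, the gene of the peptide cholecystokinin (chr9:121489824-121495694), had 1759, 1653 and 1748 TPM in P-MSCs against 2.25, 0.44 and 2.16 TPM in fBM-MSCs (log2 fold change −9.95 with SE 0.91, adjusted p = 7.3e-06, edgeR). Plac8, a small cysteine-rich protein gene first found in placenta (chr5:100553726-100572205), had 384, 388 and 389 TPM against 0, 1.72 and 0 TPM. Plac8 had counts in fBM-MSC replicate 2 alone, and its log2 fold change of −9.17 (SE 0.82) was −14.80 without that library and −8.43 without replicate 3. Mgl2, a lectin gene used as a marker of a subset of macrophages, had 14.1, 12.8 and 15.4 TPM in P-MSCs and 0 in fBM-MSCs, at least 381-fold higher in P-MSCs. The general macrophage markers Adgre1, Aif1 and C1qb were at 0 in the same P-MSC libraries, and Ptprc, the pan-leukocyte gene, had at most 0.35 TPM. The macrophage growth factor receptor gene Csf1r was in contrast higher in P-MSCs, at 2.64, 2.76 and 2.21 against 0.89, 0.60 and 0.73 TPM (−1.66, SE 0.30). Ramp3, a co-receptor for adrenomedullin, had 63.2, 36.4 and 44.3 against 0, 1.04 and 0.83 TPM (−6.02, SE 0.66), and its ligand gene Adm, a member of the hypoxia list, 379, 411 and 459 against 33.6, 42.1 and 33.0 TPM (−3.40, SE 0.13, adjusted p = 1.7e-07, edgeR).

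Markers of other cells of the lung were also read. Mesothelial markers, from the cells that line the lung surface, summed to 76.2 to 98.8 TPM in P-MSCs and 2.32 to 14.6 TPM in fBM-MSCs, and 3 of 7 tested were higher in P-MSCs. Krt19, a simple-epithelial keratin, had 53.2, 59.8 and 51.7 against 4.70, 11.1 and 1.84 TPM, and Upk1b 21.3, 35.9 and 32.1 against 1.37, 3.54 and 0.48 TPM (log2 fold changes −3.12 and −3.94, and −3.95 and −4.98 without fBM-MSC replicate 2). Msln, encoding mesothelin, had 1.61, 2.94 and 2.35 against 0.24, 0 and 0 TPM (−5.12, between −4.38 without fBM-MSC replicate 3 and −9.61 without replicate 1), while the markers Wt1, Lrrn4 and Bnc1 were at 0 in all 6 libraries. Endothelial markers summed to 11.4 to 19.7 TPM in P-MSCs and 4.07 to 9.26 TPM in fBM-MSCs, and of 7 tested 3 were higher in P-MSCs and 0 in fBM-MSCs. Flt1, a VEGF receptor gene, had 3.20, 3.20 and 3.32 against 0, 0.10 and 0 TPM (−6.31, and −11.75 without fBM-MSC replicate 2). The related receptor gene Kdr had 2.84, 2.51 and 2.33 against 0.01, 0.15 and 0.01 TPM (−5.29, and −7.23 without fBM-MSC replicate 2), and the surface mucin gene Emcn 5.13, 4.69 and 0.14 TPM against 0, with its call lost on log2(TPM + 1). In the same libraries Pecam1 had at most 0.33 TPM and Tie1 was at 0 throughout. Lung epithelial markers summed to 52.6 to 61.9 TPM in P-MSCs and 9.07 to 14.1 TPM in fBM-MSCs, and of 4 tested 2 were higher in P-MSCs and 0 in fBM-MSCs, or 1 without fBM-MSC replicate 2. Those other than Krt19 and Aqp5 had at most 1.01 TPM in any library, and Sftpa1, Sftpb, Sftpc, Sftpd, Cdh1 and Nkx2-1, the defining genes of alveolar and airway epithelium, were at 0 in all 6. Lymphocyte and erythroid markers summed to at most 1.15 and 1.73 TPM in any library. Pericyte markers, from the contractile cells of small vessels, summed to 48.4 to 59.9 TPM in fBM-MSCs and 22.1 to 23.5 TPM in P-MSCs, most of it from Pdgfrb, and of 5 tested 4 were higher in fBM-MSCs and 0 in P-MSCs. Of these, Cspg4 (log2 fold change 0.82) lost its call without fBM-MSC replicate 1 or 2 or P-MSC replicate 2 or 3, at 0.58 to 0.89. The part of these cells in the lung-side results was not tested.

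Among the surface proteins by which MSCs are recognised, 4 of 12 positive markers tested were higher in fBM-MSCs and 4 in P-MSCs, beside 24.7% and 23.0% of all genes tested. The integrin gene Itgb1 (CD29) had 897, 984 and 672 TPM in fBM-MSCs and 822, 970 and 924 TPM in P-MSCs, with overlapping ranges and a log2 fold change of 0.03 (SE 0.14). Ly6a, encoding Sca-1, was higher in fBM-MSCs at 256, 316 and 480.3 against 42.3, 46.5 and 46.1 TPM (3.09, SE 0.25, adjusted p = 2.9e-06, edgeR). Vcam1 (CD106) was higher in P-MSCs at 113, 116 and 117 against 29.3, 40.0 and 46.9 TPM (−1.46, SE 0.20), and so was the growth factor receptor gene Pdgfra at 7.42, 5.74 and 6.20 against 0.27, 0.76 and 0.75 TPM (−3.30, SE 0.36). Of the negative markers, Cd34 had 79.2, 72.7 and 10.2 TPM in fBM-MSCs against 5.15, 2.91 and 1.69 TPM (4.16, SE 0.65, adjusted p = 0.00031, edgeR). Its level in fBM-MSC replicate 3 was far below that of the others, yet above all P-MSC libraries.

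Niche genes, whose products hold and feed blood stem cells, were higher in fBM-MSCs for 7 of 18 tested and in P-MSCs for 3, or 5 without fBM-MSC replicate 1. Their median was 0.30, and the shares of all genes tested were 24.7% and 23.0%. Il34, a ligand of the macrophage receptor Csf1r, had 52.6, 52.2 and 36.3 against 3.47, 2.52 and 2.12 TPM (4.24, SE 0.26, adjusted p = 6.1e-07, edgeR), and the lymphoid cytokine gene Il7 31.1, 25.4 and 16.6 against 1.95, 1.74 and 1.98 TPM (3.81, SE 0.40). Angpt1, which keeps stem cells quiescent, had 5.80, 1.66 and 3.06 against 0.09, 0 and 0 TPM (6.75, SE 1.74, and 11.39 without P-MSC replicate 1). The chemokine gene Cxcl12, which retains stem cells in marrow, was in contrast higher in P-MSCs at 452, 376 and 454 against 178, 211 and 337 TPM (−0.85, SE 0.22, adjusted p = 0.0072, edgeR). Of 13 chemokine genes tested, Cxcl12 included, 8 were higher in fBM-MSCs and 1, Cxcl12, in P-MSCs, and among the former was Cxcl14 at 57.5, 44.4 and 69.5 against 1, 0.87 and 0.29 TPM (6.42, SE 0.74). Interferon-stimulated genes were higher in fBM-MSCs for 15 of 24 tested and in P-MSCs for 0 (median 1.89). Ifit3, an antiviral effector, had 6.52, 5.92 and 8.92 against 0.52, 0.19 and 0.57 TPM (4.18, SE 0.55), and B2m, the common subunit of MHC class I, 4226, 4957 and 6960 against 2318, 2277 and 2361 TPM (1.35, SE 0.19).

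Genes of the cell cycle were higher in P-MSCs. All 30 mitosis genes tested were higher in P-MSCs, each by at least 4-fold, with a median log2 fold change of −3.52 and a summed level of 1905 to 2058 TPM against 123 to 226 TPM in fBM-MSCs; all 30 stayed called whichever library was left out. Birc5, encoding the mitotic regulator survivin (chr11:117849237-117855743), had 305, 281 and 309 TPM in P-MSCs against 15, 23.3 and 15.7 TPM (−3.90, SE 0.16, adjusted p = 1.7e-07, edgeR). The kinetochore gene Ndc80 had 27.5, 28.4 and 32.6 against 1.70, 1.68 and 1.60 TPM (−4.03, SE 0.32). Of 38 DNA replication genes 37 were higher in P-MSCs and 0 in fBM-MSCs (median −2.24), 26 of them by at least 4-fold. The helicase subunit gene Mcm5 had 60.3, 52.9 and 53.9 against 4.76, 5.89 and 4.31 TPM (−3.37, SE 0.18), and the thymidine kinase gene Tk1 94.7, 88.0 and 107 against 3.59, 8.96 and 7.89 TPM (−3.68, SE 0.25). DNA repair genes were higher in P-MSCs for 23 of 29 tested and in fBM-MSCs for 0, or 1 without P-MSC replicate 3 (median −2.30), with the exonuclease gene Exo1 at 5.47, 6.13 and 5.93 against 0.21, 0.26 and 0.21 TPM (−4.56, SE 0.30).

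Beside 24.7% and 23.0% of all genes tested, genes that hold back the cycle were higher in fBM-MSCs for 12 of 23 and in P-MSCs for 5. The neighbouring inhibitor genes Cdkn2a (chr4:89274473-89294619) and Cdkn2b (chr4:89306289-89311032), known for their rise in senescence, were both among the former. Cdkn2a had 97.2, 111 and 109 TPM in fBM-MSCs against 12.8, 17.9 and 13.7 TPM (2.95, SE 0.22, adjusted p = 2.1e-06, edgeR). Cdkn2b had 202, 242 and 158 against 23.6, 28.9 and 27.1 TPM (3.04, SE 0.15). Ccnd1, encoding the G1 cyclin D1, was on the same side at 644, 623 and 549.8 against 131, 130.2 and 124 TPM (2.36, SE 0.11), although it promotes entry into the cycle. Higher in P-MSCs were the inhibitor gene Cdkn1b at 5.12, 2.91 and 4.16 against 0.92, 1.56 and 1.78 TPM (−1.39, SE 0.34) and the tumour suppressor gene Trp53 at 206, 202 and 187 against 104, 144 and 111 TPM (−0.61, SE 0.12).

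Accessible regions were then set beside expression. Of 56769 regions of the fBM-MSC list at a −log10 q of at least 7, 12914 (22.75%, exact binomial interval 22.4 to 23.1%) were overlapped by no region of the P-MSC list at any q. Of 55648 P-MSC regions, 8957 (16.1%, 15.79 to 16.4%) had no counterpart in fBM-MSCs. When absence from the other list was judged at the same q, the shares were 33.56% and 32.42%. The intervals cover counting error only, because each list pools its replicates, and no difference between the lists was tested over samples. Regions of only 1 tissue lay mostly away from promoters: 2.4% of those of fBM-MSCs and 4.0% of those of P-MSCs were within 1 kb of a transcription start, against 25.6 and 24.7% of the shared regions. Their median fold enrichment over background was 6.62 in both tissues, against 9.56 and 11.04 for shared regions.

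Most genes had a promoter region in both tissues. Of 2980 genes higher in fBM-MSCs, 184 (6.17%) had a promoter region only in fBM-MSCs and 79 (2.65%) only in P-MSCs. Of 2765 genes higher in P-MSCs, 137 (4.95%) had one only in P-MSCs and 13 (0.47%) only in fBM-MSCs. Over all 12021 genes with a known start, 2.24% had a promoter region only in fBM-MSCs, 3.93% only in P-MSCs and 84.78% in both lists, and among genes not called the first 2 shares were 1.15% and 4.09%. The P-MSC share of genes higher in P-MSCs, with an interval from 4.18 to 5.83%, thus overlapped that of genes not called, from 3.62 to 4.62%. Among genes at least 4-fold higher in fBM-MSCs, 15.97% had a promoter region in that tissue only and 30.35% had none in either list. Among genes at least 4-fold higher in P-MSCs, 13.86% had a promoter region in that tissue only and 14.42% had none. Within 50 kb of their start, genes at least 4-fold higher in fBM-MSCs held on average 1.169 regions found only in fBM-MSCs and 0.45 found only in P-MSCs. Genes at least 4-fold higher in P-MSCs held 0.536 and 1.06. All genes held 0.684 and 0.649.

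At HoxB, HoxC and HoxD more regions were found in the tissue with the higher called genes. HoxC held 14 fBM-MSC regions, 9 of them without a P-MSC counterpart, and 2 P-MSC regions, both shared. HoxD held 8 fBM-MSC regions against 1, and HoxB 11 P-MSC regions, 10 of them without an fBM-MSC counterpart, against 1. HoxA, expressed at its anterior end in P-MSCs and its posterior end in fBM-MSCs, held 14 and 17. Single promoters were picked only where the region was listed in just the tissue with higher expression, so their direction was fixed by this choice. Among those of fBM-MSCs were Hoxc10, Hoxa10, Hoxa11, Hoxd10, Dlx5, Shox2, Atp6v0d2, Bglap2 and Ibsp. Those of P-MSCs included Hoxa2, Hoxa5, Hoxb5, Hoxb6, Cnn1, Nr2f2 and Plac8.

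The regions also differed in the transcription factor motifs they held within 100 bases of the summit. RUNX factors drive osteoblast and blood programmes and bind TGTGGT or TGCGGT. On either strand that motif was found in 38.2% (37.36 to 39.04%) of the regions of only fBM-MSCs, in 23.57% of the fBM-MSC regions shared with P-MSCs and in 17.65% (16.87 to 18.46%) of the regions of only P-MSCs. GATA factors bind AGATAA or TGATAA, and in place of their last base also G (AGATAG and also TGATAG), which were found in 20.32% (19.63 to 21.02%), 18.21% and 34.31% (33.32 to 35.3%). TEAD factors, which act at the end of the Hippo pathway, bind GGAATG, found in 16.86%, 17.5% and 26.11% (25.21 to 27.04%). The AP-1 motif, TGAGTCA or TGACTCA, was found in 28.8%, 31.31% and 31.08%. The SOX motif, ACAAAG or ACAATG, was found in 27.23%, 21.39% and 28.39%. CEBP (TTGC, any 2 bases, then AA), PITX (TAATCC), FOX (TGTTTAC), TCF (CTTTGAT), posterior HOX (TCGTAAA), MEF2, EBF, CArG and NFI motifs were each found in at most 10.29% of any kind of region. Mean GC content was 47.2% in the regions of only fBM-MSCs, 52.9% in shared regions and 45.8% in those of only P-MSCs. Of 300-base promoters of all genes in RefSeq, 22.39% held the RUNX, 29.55% the GATA, 14.56% the TEAD and 5.26% the AP-1 motif.

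**Figure D5:**
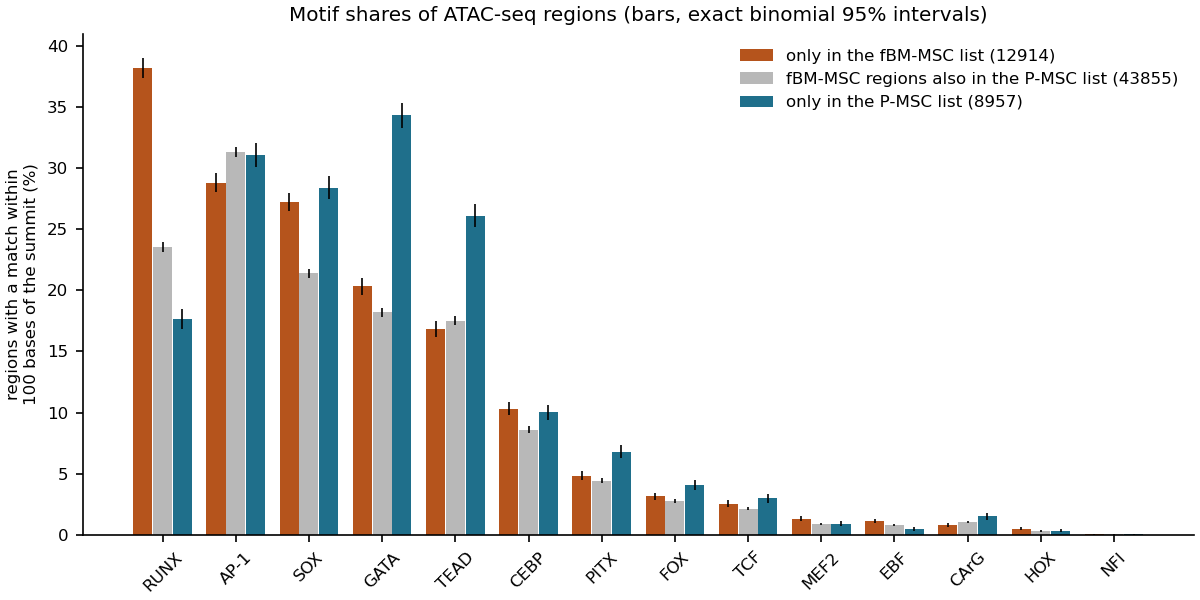
Percent of ATAC-seq regions with a match to each motif within 100 bases of the summit, for regions of only fBM-MSCs, fBM-MSC regions shared with P-MSCs and regions of only P-MSCs; error bars are exact binomial 95% intervals. RUNX matches stand highest in the regions of only fBM-MSCs (38.2%), and GATA and TEAD matches in those of only P-MSCs (34.31% and 26.11%).

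Levels of RUNX, GATA and AP-1 factors are given beside the motifs. Runx2, the master factor of osteoblasts, had 5.40, 7.89 and 12.5 TPM in fBM-MSCs against 2.30, 2.96 and 2.94 TPM in P-MSCs (log2 fold change 1.72 with SE 0.31, adjusted p = 0.00084, edgeR). Runx3 had 1.43, 3.34 and 7.67 against 0, 0.10 and 0 TPM (7.14, SE 1.48, between 6.30 when fBM-MSC replicate 3 was omitted and 11.50 without P-MSC replicate 2), and Runx1, the blood stem cell factor, was not called at 4, 5.59 and 5.07 against 4.05, 4.57 and 4.09 TPM. Gata2 had 19.4, 18.9 and 17 TPM in P-MSCs against 4.77, 5.01 and 2.42 TPM (−2.07, SE 0.29), and Gata4, better known from heart and gut, 1.71, 1.91 and 1.14 against 0.05, 0 and 0.05 TPM (−5.48, SE 1.15, between −4.86 and −6.13 without fBM-MSC replicate 2 or 3). Over the list of RUNX, GATA and AP-1 factors, 5 of 17 tested were higher in fBM-MSCs and 9 in P-MSCs, beside 24.7% and 23.0% of all genes. The 9 fell to between 3 and 5 without fBM-MSC replicate 2 or 3 or any P-MSC library. Fos, an AP-1 subunit, kept its call in every setting that left out a library, at 4.13, 5.30 and 5.99 TPM in P-MSCs against 1.44, 1.90 and 3.04 TPM (−1.13, SE 0.26).

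Sequences of regions found in only 1 tissue show where these motifs lie. They were read on the plus strand from RefSeq's GRCm38.p6, whose coordinates are those of mm10, within 100 bases of the summit and with exon bases left out, and capitals mark RUNX, GATA, TEAD and AP-1 matches. The promoters shown are 3 of the most enriched among named genes that were found only in the tissue where the gene was higher; those of Hoxa5 and Insc lay almost wholly in exons. Those of Atp6v0d2 (chr4:19922567-19922710, fold enrichment 29.43) and Dlx5 (chr6:6882069-6882229, 13.98) were open only in fBM-MSCs, and that of Cnn1 (chr9:22099107-22099220, 10.3) only in P-MSCs. All 3 stretches lie upstream of the first exon. The Atp6v0d2 promoter held 1 RUNX, 1 GATA and 1 AP-1 match, and the other 2 held none of these motifs.
Atp6v0d2 promoter: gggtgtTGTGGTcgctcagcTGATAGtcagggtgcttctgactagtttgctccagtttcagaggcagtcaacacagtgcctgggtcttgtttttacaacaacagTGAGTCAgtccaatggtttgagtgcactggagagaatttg
Dlx5 promoter: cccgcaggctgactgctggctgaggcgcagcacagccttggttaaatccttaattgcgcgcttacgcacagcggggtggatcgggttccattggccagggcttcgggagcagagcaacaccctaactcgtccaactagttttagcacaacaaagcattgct
Cnn1 promoter: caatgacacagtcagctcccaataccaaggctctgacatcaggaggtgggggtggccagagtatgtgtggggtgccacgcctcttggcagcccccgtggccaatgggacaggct

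Away from promoters, 3 of the strongest regions of only 1 tissue near a gene higher in it are shown because they hold a RUNX or GATA match, and they were chosen after the motif shares had been seen. The region in an intron of Alpl (chr4:137748860-137749060, fold enrichment 15.45), open only in fBM-MSCs, held 1 RUNX match. A region between genes 45.5 kb upstream of Cck (chr9:121541063-121541263, 15.82) and one 47.2 kb upstream of Itga8, in an intron of its neighbour Mindy3 (chr2:12349013-12349213, 15.08), were open only in P-MSCs and each held 1 GATA match. Itga8, an integrin of lung and kidney mesenchyme, had 2.66, 4.73 and 5.21 TPM in P-MSCs against 0.46, 0.88 and 0.65 TPM in fBM-MSCs. Stronger regions near Hpgd and Slc20a1 in fBM-MSCs and near Plac8 in P-MSCs held none of the 4 motifs.
Alpl intron: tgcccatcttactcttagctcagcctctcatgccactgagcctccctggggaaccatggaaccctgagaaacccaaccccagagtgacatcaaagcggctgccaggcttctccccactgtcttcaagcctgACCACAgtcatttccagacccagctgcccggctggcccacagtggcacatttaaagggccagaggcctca
Cck upstream: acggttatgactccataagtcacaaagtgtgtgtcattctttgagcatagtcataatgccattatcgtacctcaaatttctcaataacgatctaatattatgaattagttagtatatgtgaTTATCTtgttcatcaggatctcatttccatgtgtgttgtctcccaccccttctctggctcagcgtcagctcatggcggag
Itga8 upstream: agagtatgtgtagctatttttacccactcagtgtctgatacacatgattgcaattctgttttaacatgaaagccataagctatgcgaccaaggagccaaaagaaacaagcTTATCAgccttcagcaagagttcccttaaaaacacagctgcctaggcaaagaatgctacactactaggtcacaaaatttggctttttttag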

How the data were processed

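RNA was sequenced by Smart-seq2, which copies polyadenylated RNA without strand information or molecular identifiers. The authors deposited, per library and gene, an expected count, TPM and FPKM from RSEM with STAR on mm10 (24411 genes). The deposited ATAC-seq peak lists, called with MACS2 on pooled reads, hold the fold enrichment over background, the −log10 p-value (not used) and the −log10 q-value of each summit; the lowest step of enrichment was 0.368 in both lists. FPKM and the adipose and vertebral peak lists were not used, and vertebral replicate 3 was not analysed here.

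After rounding, expected counts entered edgeR 4.0.16 (R 4.3.3) and were tested by its quasi-likelihood F test after TMM normalization, without a replicate block and with Benjamini-Hochberg adjustment. Genes were kept at 1 CPM or more in 2 or more of 11 libraries, and all 4 tissues entered the model so that they share 1 estimate of the spread. Alternatives used limma 3.58.1 on TPM and DESeq2 1.42.0 on counts. The method was tested on simulated counts. Count intervals and limits cover counting error only. Summits were merged to regions; regions at a −log10 q of at least 7 on chromosomes 1 to 19 were compared by an overlap of 1 base, in Python 3.11.15 with scipy 1.17.1.

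The genes, gene lists and comparisons were chosen with earlier results of these data known. Named genes were the 15 in each direction with the largest log2 fold change at 5 TPM or more in all libraries of the higher tissue and ranges that did not overlap, the 10 with the largest TPM difference, up to 4 called members of each list in each direction, and any member of the Hox, limb, lung, factor, surface and cell marker lists. Atf4, Phex and Slc20a1, named outside this rule, were chosen after their values were seen. Promoter sequences came from up to 4 genes a tissue with the most enriched region within 1 kb of a start.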

Additional observations from a re-analysis of the deposited data

How the results depend on the processing

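The comparison of expression was repeated under 15 other settings, and in none of them did a gene called in both settings change direction. The number of genes called lay between 5702 and 6389 under other scalings, filters, tools and models. Deviations of same-numbered libraries from their tissue means correlated at 0.031, −0.036 and −0.013, against −0.041 to 0.067 for the other pairs. These values cannot show whether a number marks a mouse, because an effect of the mouse may be too small to appear. With the replicate number as a block, the count was 5874 with all libraries and 5702 with only the 2 tissues. Genes called at 4-fold or more numbered 1428 and 1429 instead of 1467, and 10 and 12 of the named genes lost their call. Leaving out 1 library gave 4974 to 5632 genes, 1340 to 1431 of them at 4-fold or more, 267 to 283 of the 307 called named genes, and 25 to 27 lists with more members higher in fBM-MSCs. On log2(TPM + 1) only 674 genes reached 4-fold, 329 of them higher in fBM-MSCs and 345 in P-MSCs, while with a pseudocount of 0.1 there were 1405, 779 and 626. Of the called named genes, 252 stayed called in every setting that tested them and 55 were lost in at least 1.

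Among fBM-MSC regions the share absent from the P-MSC list was 37.36% with no q threshold, 8.42% at a −log10 q of at least 20 and 33.56% when absence was judged at 7. The share for P-MSC regions was 30.2%, 4.52% and 32.42%, and 16.45% with an overlap of at least 50% of either region. With no q threshold, 4.83% of genes higher in fBM-MSCs and 2.68% of those higher in P-MSCs had a promoter region in their own tissue only. Motifs more frequent in regions of only fBM-MSCs than of only P-MSCs numbered 3 at a −log10 q of at least 20 and 6 within 50 bases of the summit, against 5. Of these, RUNX and EBF alone had binomial intervals apart from those of P-MSCs, in each of these settings. RUNX, GATA and TEAD kept their direction. Genes near 0 in one tissue have a fitted fold change that 1 library can move by several log2 units, which limits its size but not its direction, and the pooled peak lists give no replicate error.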

Other observations

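Immediate early genes, which respond within minutes to serum and stress, were higher in P-MSCs for 14 of 23 tested and in fBM-MSCs for 2 (median log2 fold change −0.64), with 9 without P-MSC replicate 3 and 1 in place of the 2 without fBM-MSC replicate 1 or 3 or P-MSC replicate 2. The orphan receptor gene Nr4a1 had 27.2, 26.1 and 24.8 TPM in P-MSCs against 6.26, 6.75 and 8.07 TPM in fBM-MSCs (−1.76, SE 0.17), and the mRNA decay factor gene Zfp36 22.9, 23.7 and 20.9 against 5.33, 5.85 and 5.47 TPM (−1.90, SE 0.14). Egr2 went the other way at 8.35, 8.12 and 2.08 TPM in fBM-MSCs against 0.31, 0.37 and 0.93 TPM (3.65, and 4.30 without P-MSC replicate 3). Hypoxia response genes were higher in P-MSCs for 8 of 19 and in fBM-MSCs for 3, beside 23.0% and 24.7% of all genes tested. The 3 fell to 1 without fBM-MSC replicate 3 or P-MSC replicate 1 or 2. Of the mediators by which MSCs act on immune cells, Ptgs2, the inducible enzyme of prostaglandin synthesis, had 508, 457 and 470.1 TPM in P-MSCs against 148, 111 and 83.7 TPM (−1.94, SE 0.20). The interleukin-1 antagonist gene Il1rn had 5.46, 2.75 and 12.8 TPM in fBM-MSCs and 0 in P-MSCs, at least 418-fold higher, with a fitted log2 fold change of 11.55 that was 10.75 without fBM-MSC replicate 3.

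Cholesterol synthesis genes were as often higher in one tissue as in the other, 5 of 24 each, with a median log2 fold change of −0.02, near the 24.7% and 23.0% of all genes tested. Adipogenic and lipid genes were higher in fBM-MSCs for 6 of 19 and in P-MSCs for 5, also near those shares, and the 5 fell to between 1 and 4 when 1 library was left out, with 1 without fBM-MSC replicate 2. Fabp4, a fatty acid carrier of adipocytes, had 31.1, 27.4 and 64.0 TPM in fBM-MSCs against 3.84, 2.68 and 2.71 TPM (3.85, SE 0.56). Igf2bp1, an oncofetal RNA-binding protein gene, had 3.84, 4.05 and 4.73 TPM in P-MSCs against 0.04, 0.14 and 0.06 TPM (−5.62, SE 0.39, and −6.29 without fBM-MSC replicate 2), and its relative Igf2bp3 11.3, 14.1 and 11.2 against 1.38, 2.60 and 1.26 TPM (−2.69, SE 0.34). The ferritin heavy chain gene Fth1 had 24805, 26108 and 25475 TPM in fBM-MSCs against 7049, 6618 and 6461 TPM (2.05, SE 0.09, adjusted p = 1.7e-07, edgeR), and the heme oxygenase gene Hmox1 4064, 4498 and 4077 against 1640, 1463 and 1274 TPM (1.65, SE 0.12).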
